A study of Arabidopsis thaliana with 4 samples.

Results

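A set of 10 genes for the oxidases that make and break down gibberellin was followed in developing Arabidopsis thaliana seeds, in the wild type and in an ERF4 insertion line. They were chosen by locus identifier, with no threshold on a measured value, but with earlier results of these data known. All 10 were among the 33187 identifiers of the deposited matrix. They comprise GA20OX1 to GA20OX3, GA3OX1 to GA3OX4, GA2OX1, GA2OX2 and GA2OX6. RNA came from whole seeds at 7 days after anthesis with embryos between torpedo and linear stage, and each genotype had 2 libraries. The mutant is the T-DNA line SALK_073394, which the titles call erf4_2, and no second allele is analysed here. The labels name no other allele or treatment, and they do not state whether the 2 libraries of a genotype had separate plant sources. The p-values therefore reflect no more than how far these libraries differ, possibly for technical reasons.

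Gibberellins are diterpenoid hormones that promote growth and germination, and developing seeds are a rich source of them. GA 20-oxidases carry out successive oxidations of late precursors, GA 3-oxidases take the last step to the bioactive hormone, and GA 2-oxidases inactivate it. All are soluble dioxygenases that use 2-oxoglutarate and iron, and each class is a small gene family whose members are used in different organs. ERF4, an ethylene response factor, acts as a transcriptional repressor, and the comparison asks how seed transcripts differ in its mutant.

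Some facts of the libraries bear on every value below. Values are TPM (transcript shares scaled to a fixed total per library, which corrects for transcript length, so levels of different genes can be set side by side), and the number of reads behind them is unknown. ERF4 itself (AT3G15210) had 38.0 and 33.0 TPM in wild-type seeds against 34.6 and 41.3 TPM, so its transcript does not check the labels, and directions are those of the libraries labelled erf4 relative to the wild type. Summed TPM of 7 embryo markers was 14300 and 9576 in the wild type against 14006 and 1484, where the low erf4 replicate 2 stands apart. Most of that sum came from SESA3 (AT4G27160), with 9387 and 4932 TPM against 10649 and 137 TPM. CRA1 (AT5G44120) followed with 3283 and 2750 TPM against 2311 and 309 TPM. Of the other embryo markers, FUS3, L1L and WOX9 were higher in erf4 replicate 2 than in erf4 replicate 1, and LEC1 and OLEO3 were lower. Singly, 4 of the 7 lay below the wild-type range and 2 above it (median log2 fold change -0.89). The 9 seed coat markers summed to 921 and 689 against 1799 and 1314, and the 9 markers of silique wall, replum and funiculus to 701 and 664 against 850 and 856. The 8 endosperm markers summed to 1633 and 1296 against 882 and 779, a sum made up mostly of EPR1 (AT2G27380), which had 1530 and 1189 TPM against 779 and 633. Of the 7 tested endosperm markers, 4 lay above the wild-type range and EPR1 below it (median log2 fold change 0.23), among them the imprinted gene PHE1 (AT1G65330), with 2.51 and 2.18 TPM against 8.07 and 6.06. All of these markers had values above 0 in every library, and the lowest was the endosperm gene IKU2, with at most 0.16 TPM. Among the 9 seed coat markers, 7 had more TPM in each erf4 library than in either wild-type one, and 0 had less in both. Their median log2 fold change was 0.58, close to the 0.59 of the 7 tested oxidase members. Of the 9 markers of silique wall, replum and funiculus, 6 were higher in this way and 2 lower (median 0.25). By the same count, 21.5% of all tested genes were higher and 12.2% lower. Such shifts went both ways in every list but the seed coat one. Some marker genes of embryo, endosperm, seed coat and silique tissue thus lay outside the wild-type range in both erf4 libraries. None of the markers passed the limma test described below (smallest adjusted p = 0.461). Their part in the results below was not tested, and in whole seeds fewer cells of a type cannot be told apart from less RNA per cell. Of the tested genes, 42.3% had their lowest value in erf4 replicate 1 and 8.57% in erf4 replicate 2. The shares were 16.2% for wild type replicate 1 and 31.9% for wild type replicate 2.

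In wild-type seeds 1 gene carried most of the 20-oxidase transcript and another most of the 3-oxidase transcript. GA20OX3 (AT5G07200), a 20-oxidase gene known from siliques, had 364 and 386 TPM in wild-type seeds and ranked 324 and 311 among all genes by level. GA3OX4 (AT1G80330), a 3-oxidase gene known from reproductive organs and seeds, followed with 20.4 and 29.0 TPM, and GA20OX2 (AT5G51810) with 10.5 and 10.7 TPM. GA3OX1 (AT1G15550) and GA3OX3 (AT4G21690) overlapped each other at 5.57 and 6.17 TPM and at 5.78 and 3.85 TPM. Below them stood the 2-oxidase genes GA2OX2 (AT1G30040), with 3.24 and 2.96 TPM, and GA2OX6 (AT1G02400), with 1.95 and 1.40 TPM.

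The other 3 members were below 1 TPM in every library and entered no test. GA20OX1 (AT4G25420), best known for stem elongation, had 0.47 and 0.68 TPM in wild-type seeds against 0.32 and 0.43, below the wild-type range. GA3OX2 (AT1G80340), which acts in germinating seeds, had 0.34 and 0.20 TPM against 0.31 and 0.30, although it lies next to GA3OX4 on chromosome 1 in the TAIR10.1 annotation. GA2OX1 (AT1G78440) had 0.35 and 0.50 TPM against 0.54 and 0.97, above the wild-type range. In the libraries labelled erf4 the order of levels differed below GA20OX3. GA20OX2 overlapped GA3OX4 there, GA3OX4 spanned the levels of GA3OX1 and GA3OX3, and GA2OX6 overlapped GA2OX2.

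**Figure D1:**
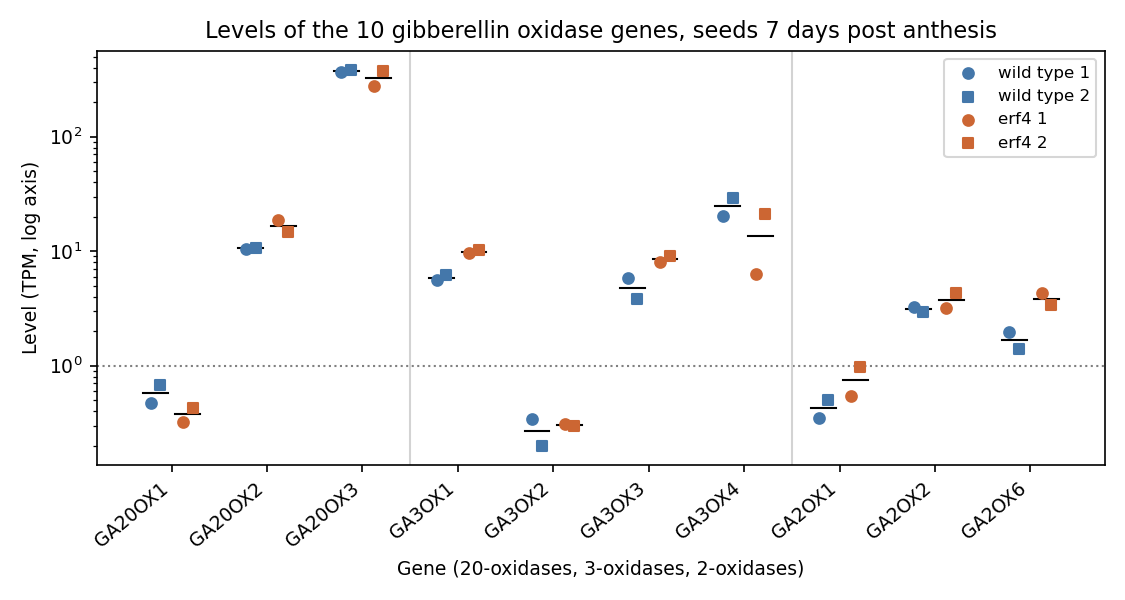
TPM of the 10 genes (log axis) in each library, with circles for replicate 1, squares for replicate 2, blue for the wild type, orange for erf4 and black bars for the genotype means; the dotted line marks 1 TPM. GA20OX3 lies between 276 and 386 TPM in all 4 libraries, and GA20OX1, GA3OX2 and GA2OX1 lie under 1 TPM.

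No members were near-identical in coding sequence, which bears on whether reads could be shared between them. Over coding sequences of RefSeq TAIR10.1, the 45 pairs of members had between 47.2% and 77.5% identical bases in a global alignment, and the closest pair was GA20OX1 and GA20OX2. No pair shared an identical run of more than 29 bases. The tandem neighbours GA3OX2 and GA3OX4 had 60.5% identical bases and a longest shared run of 11. GA3OX4 was the only member whose annotated span overlaps another gene, by 11 bases with AT1G80325 on the same strand.

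Among the tested genes for hormone synthesis, GA20OX3 and GA3OX4 overlapped between genotypes. The other 3, GA20OX2, GA3OX1 and GA3OX3, exceeded both wild-type values in each library labelled erf4, as did 21.5% of all tested genes. None passed the test. The test was limma on log2(TPM + 1), adjusted over the 20804 genes with at least 1 TPM in at least 2 libraries, and it called no gene at an adjusted p under 0.05 (0.00%). At an unadjusted limma p under 0.05, where 4 of the 7 tested members fell, there were 1452 genes (6.98%). All 7 tested members were above 1 TPM in every library.

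For the 20-oxidases, GA20OX3 had 364 and 386 TPM in wild-type seeds against 276 and 373 TPM. The low value was that of erf4 replicate 1, while erf4 replicate 2 lay within the wild-type range. The log2 fold change stood at -0.22 (SE 0.20, 95% confidence interval -0.72 to 0.28, limma adjusted p = 1), and -0.01 without erf4 replicate 1. GA20OX2 had 10.5 and 10.7 TPM against 18.7 and 14.6 TPM, so both libraries labelled erf4 lay above the wild type. Its mean was 1.57-fold higher, with a log2 fold change of 0.59 (SE 0.19, limma adjusted p = 0.617). Summed TPM of the class was 386 ± 15.5 in the wild type and 342 ± 65.3 in erf4 (SD, n = 2), since GA20OX3 made up 93.6% to 97.1% of it in every library. The level of GA20OX3 was 34.7 and 35.9 times that of GA20OX2 in the wild type, and 14.8 and 25.6 times in the libraries labelled erf4.

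For the 3-oxidases, GA3OX4 had 20.4 and 29.0 TPM in wild-type seeds against 6.27 and 20.9 TPM. The value of erf4 replicate 1 was below both wild-type values, and erf4 replicate 2 lay within the wild-type range. On the log2 scale the fold change was -1.00 (SE 0.54, 95% confidence interval -2.37 to 0.36, limma adjusted p = 0.854). Leaving out erf4 replicate 1 gave -0.21, and leaving out erf4 replicate 2 gave -1.80. GA3OX1, known for vegetative growth as well as siliques, had 5.57 and 6.17 TPM against 9.64 and 10.2 TPM, and both libraries labelled erf4 lay above the wild type. Its mean was 1.69-fold higher, with a log2 fold change of 0.67 (SE 0.19, limma adjusted p = 0.554). GA3OX3 had 5.78 and 3.85 TPM against 8.08 and 9.08 TPM, again without overlap. Its mean was 1.78-fold higher, with a log2 fold change of 0.74 (SE 0.25, limma adjusted p = 0.633), and 0.47 with a pseudocount of 5.

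Set against each other, these 3-oxidase values give a class whose total overlapped between genotypes, while the shares of GA3OX4, GA3OX1 and GA3OX3 did not. The small share of GA3OX2 did overlap, and shares within a library depend on one another. The summed TPM of the 4 genes was 32.1 and 39.2 in the wild type and 24.3 and 40.5 in the libraries labelled erf4. GA3OX4 held 63.5% and 73.9% of it in the wild type against 25.8% and 51.7%. The share of GA3OX1 was 17.4% and 15.7% against 39.7% and 25.2%, and that of GA3OX3 18.0% and 9.83% against 33.3% and 22.4%. Without GA3OX4 the class summed to 11.0 ± 1.04 TPM in wild-type seeds and 18.8 ± 1.10 TPM in erf4 (SD, n = 2), a 1.72-fold difference. The ratio of GA3OX4 to GA3OX1 was 3.66 and 4.69 in the wild type against 0.650 and 2.05. These shares were set out after the values were seen, and with 2 libraries against 2 an exact two-sided permutation test cannot give a p under 0.333, so none was used.

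**Figure D2:**
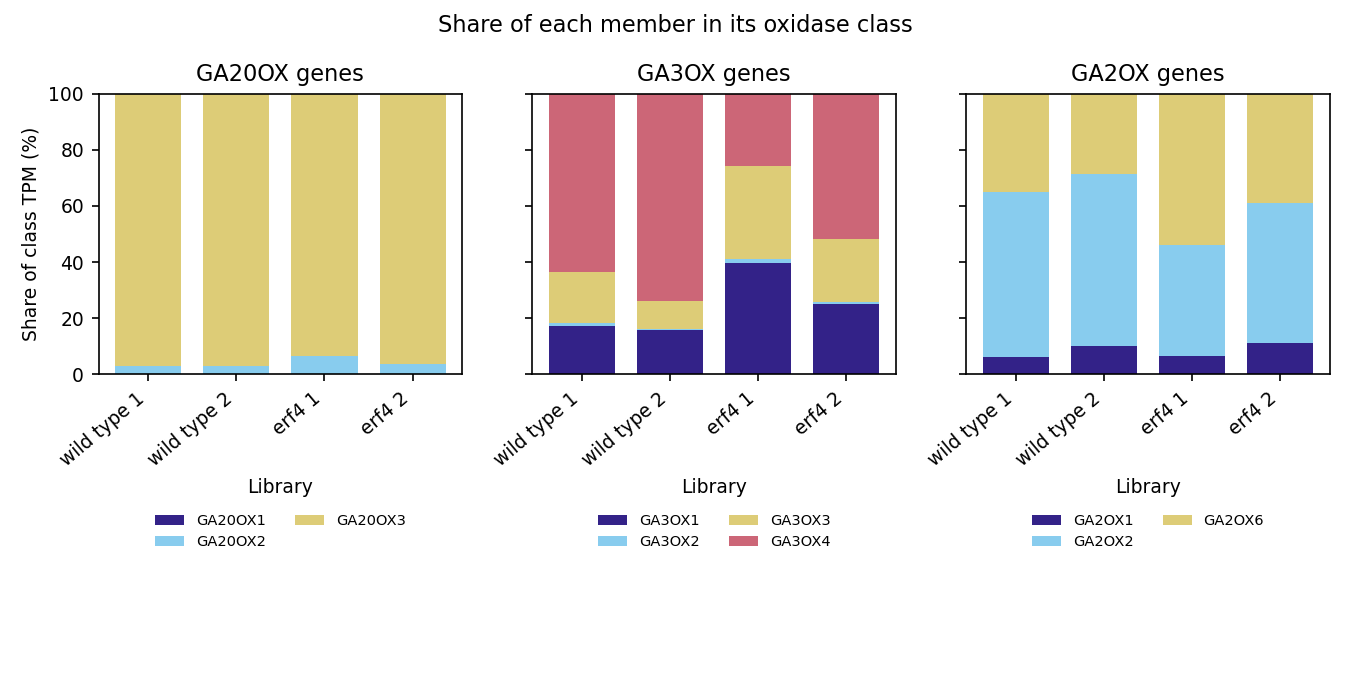
Share of each gene in the summed TPM of its class (percent), one stacked bar per library. GA20OX3 fills at least 93.6% of the 20-oxidase bars, the GA3OX4 segment is 63.5% or more in the wild type and 51.7% or less in the libraries labelled erf4, and the GA2OX6 segment is largest in erf4 replicate 1.

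For the 2-oxidases, GA2OX6 stood higher in both libraries labelled erf4. This gene, known as a target of the embryo MADS-domain factor AGL15, had 1.95 and 1.40 TPM in wild-type seeds against 4.35 and 3.36 TPM. Its mean was 2.30-fold higher, the highest ratio among the 7 tested members, with a log2 fold change of 0.86 (SE 0.26, limma adjusted p = 0.572). That value was 0.41 with a pseudocount of 5 and 1.16 with a pseudocount of 0.1. GA2OX2, known for holding back germination of seeds in the dark, had 3.24 and 2.96 TPM against 3.19 and 4.32 TPM, which overlap. Its log2 fold change was 0.20 (SE 0.24, limma adjusted p = 1), and 0.03 without erf4 replicate 2. Summed TPM of the 3 breakdown genes was 5.54 and 4.86 in the wild type against 8.08 and 8.65, a 1.61-fold higher mean. That sum covers only the member 2-oxidases and depends on the choice of genes. Outside the members, GA2OX9 was lower in erf4, with 13.3 and 15.0 TPM against 6.24 and 10.6 TPM. GA2OX4 was higher, with 3.09 and 2.03 TPM against 4.04 and 4.01 TPM.

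Of the 7 tested members, 4 had both erf4 values above the wild-type range (21.5% of all tested genes did) and 0 below it (12.2% did). Positive log2 fold changes were found for 5 of the 7 and for 55.9% of all tested genes. The median over the 7 was 0.59, against 0.03 over all tested genes, and it was 0.25 over all 10 when no filter was applied.

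**Figure D3:**
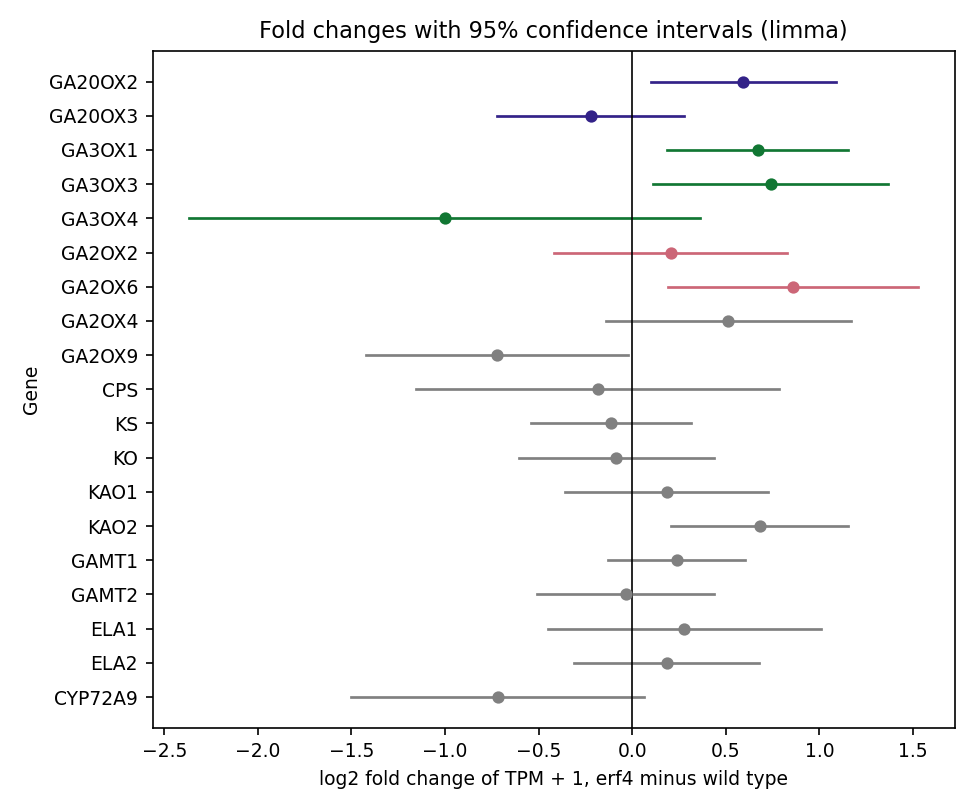
Log2 fold change (TPM + 1, erf4 minus wild type) with limma's 95% confidence interval, not adjusted for the number of genes, for the 7 tested members (coloured by class) and for 12 other genes of gibberellin synthesis and inactivation (grey). GA20OX2, GA3OX1, GA3OX3 and GA2OX6 lie to the right of 0, while GA3OX4, at -1.00, has the widest interval.

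Promoter sequence was searched because ERF4 belongs to a family that binds the GCC box (core GCCGCC), and because the B3 factor FUS3, which binds the RY element (core CATGCA), is known to hold down gibberellin synthesis genes in seeds. In the 250 bases before the RefSeq gene start (TAIR10.1), searched on both strands, no member had a GCC box, which 1.87% of 27443 promoters of protein-coding genes in the matrix have. None had the dehydration-responsive core CCGAC (12.0% of promoters) or the G-box CACGTG (6.49%) either. The RY core was present in 3 of 10 members, against 8.43% of all promoters. The promoters with the RY core are printed 5′ to 3′ on the strand of the gene, with the matches in capitals.
GA20OX2: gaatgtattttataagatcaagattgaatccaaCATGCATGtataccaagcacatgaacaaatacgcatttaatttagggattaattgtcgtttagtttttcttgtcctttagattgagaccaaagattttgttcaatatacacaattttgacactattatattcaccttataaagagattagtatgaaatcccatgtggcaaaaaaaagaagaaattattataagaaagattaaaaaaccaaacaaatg
GA3OX4: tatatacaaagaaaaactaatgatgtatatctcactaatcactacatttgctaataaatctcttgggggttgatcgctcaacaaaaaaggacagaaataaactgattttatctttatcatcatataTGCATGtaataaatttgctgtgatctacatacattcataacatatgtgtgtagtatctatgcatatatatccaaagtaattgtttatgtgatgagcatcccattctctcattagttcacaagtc
GA2OX6: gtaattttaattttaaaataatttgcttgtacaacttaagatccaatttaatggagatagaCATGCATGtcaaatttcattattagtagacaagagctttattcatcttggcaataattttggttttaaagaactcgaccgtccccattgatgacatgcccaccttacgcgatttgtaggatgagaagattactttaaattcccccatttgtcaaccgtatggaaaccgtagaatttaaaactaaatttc
In GA20OX2 (chromosome 5, minus strand) and GA2OX6 (chromosome 1, plus strand) a match on each strand overlaps in an 8-base palindrome, which spans 217 to 210 and 189 to 182 bases before the start. In GA3OX4 (chromosome 1, minus strand) a single match lies 124 to 119 bases before it. Of the 4 tested members above the wild-type range, GA20OX2 and GA2OX6 had the palindrome, while GA3OX1 and GA3OX3 had no RY core. GA3OX4, with the single match, overlapped between genotypes. A link between these matches and the levels was not tested. These matches describe letters in a window and show no binding.

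Known regulators of these oxidase genes mostly had negative fold changes, and this rested on 1 library. Of 11 tested, 10 had a negative log2 fold change (median -0.34) and none was called, with 2 below the wild-type range and none above it. Over all tested genes, 55.9% had a positive log2 fold change, 12.2% lay below that range and 21.5% above it. FUS3 (AT3G26790), a B3 factor of embryo maturation that is also among the embryo markers, had 145 and 175 TPM in wild-type seeds against 63.4 and 115 TPM. ABI3 (AT3G24650), the B3 factor of the abscisic acid response, had 37.1 and 35.3 TPM against 20.4 and 29.9 TPM, and both genes lay below the wild-type range. AGL15 (AT5G13790) had 84.5 and 117 TPM against 53.1 and 95.9 TPM, which overlap. Their log2 fold changes were -0.89, -0.53 and -0.47 (smallest limma adjusted p = 0.642). Of the 11 regulators, 9 had their lowest value in erf4 replicate 1, as did GA3OX4 and GA20OX3 (42.3% of all tested genes did). Without that library the median of the list was -0.002, and without erf4 replicate 2 it was -0.48.

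**Figure D4:**
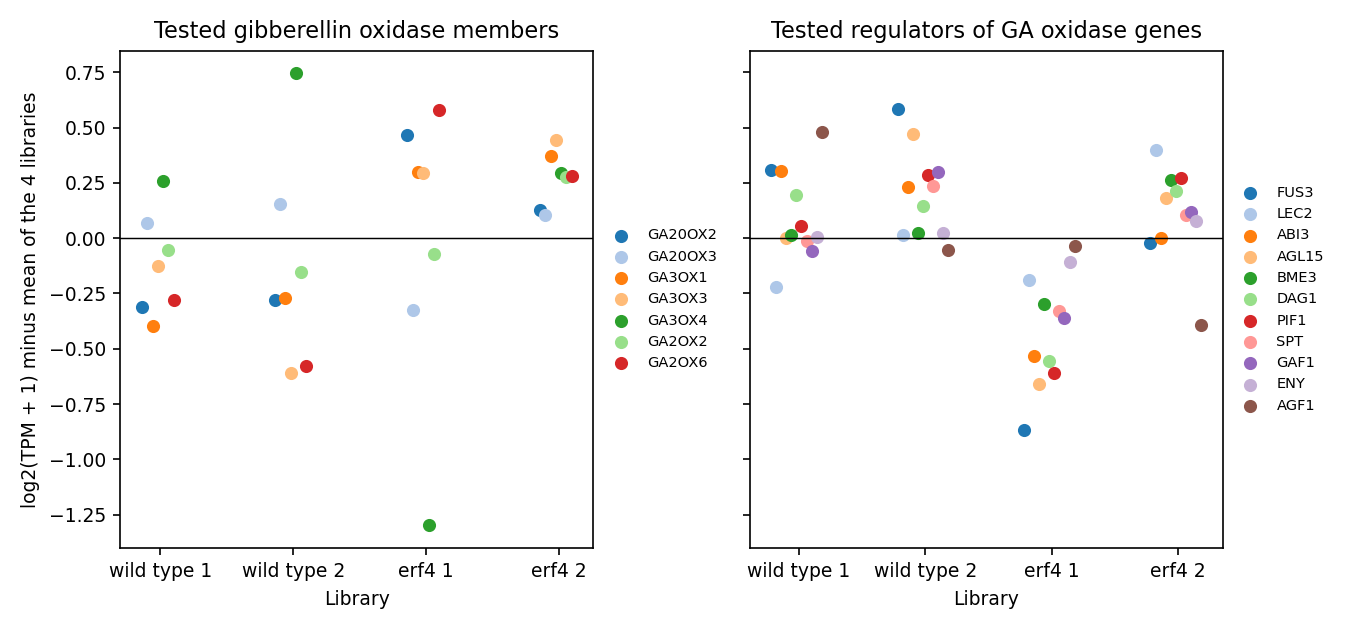
Level of each tested gene per library, as log2(TPM + 1) minus its mean over the 4 libraries, for the 7 oxidase genes (left) and the 11 regulators (right). All 11 regulators lie below their own mean in erf4 replicate 1, where GA3OX4 has the lowest point of the left panel, and GA3OX1, GA3OX3, GA20OX2 and GA2OX6 lie above 0 in both libraries labelled erf4.

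Of the 5 genes for the steps before the oxidases, 4 were above 20 TPM in every library, and KAO2 was the one that did not overlap between genotypes. KAO2 (AT2G32440), one of the paired genes for ent-kaurenoic acid oxidase, had 30.2 and 23.6 TPM in wild-type seeds against 40.2 and 46.9 TPM (log2 fold change 0.68, SE 0.19, limma adjusted p = 0.548). Its paralogue KAO1 (AT1G05160) had 70.4 and 80.2 TPM against 71.3 and 103 TPM. The ent-kaurene synthase gene KS (AT1G79460) had 29.4 and 30.4 TPM against 24.8 and 30.6 TPM. CPS (AT4G02780), for the synthase that opens the pathway, was near the filter, with 1.15 and 1.41 TPM against 0.47 and 1.73 TPM. The ent-kaurene oxidase gene KO (AT5G25900) had 129 and 136 TPM against 104 and 149 TPM. Of the 5 tested genes 2 were positive and 3 negative (median -0.09, from -0.26 without erf4 replicate 2 to 0.26 with erf4 replicate 1 left out), and none was called.

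The 5 listed genes for other routes of inactivation together carried far more transcript than the 3 member 2-oxidases. They summed to 536 and 499 TPM in wild-type seeds against 572 and 584 TPM. The methyltransferase gene GAMT1 (AT4G26420), known from siliques and seeds, had 305 and 287 TPM in wild-type seeds against 355 and 344 TPM, a level near that of GA20OX3. GAMT2 (AT5G56300), which encodes the other gibberellin methyltransferase, had 152 and 119 TPM against 143 and 121 TPM. The cytochrome P450 gene ELA1 (AT5G24910) had 48.6 and 56.6 TPM against 48.1 and 84.4 TPM. CYP72A9 (AT3G14630), for a P450 that hydroxylates gibberellins, had 11.4 and 13.5 TPM against 5.20 and 9.67 TPM, both below the wild type. Its log2 fold change was -0.72 and that of GAMT1 0.24 (limma adjusted p = 0.767 and 0.915). Of the 5 tested genes of this list 3 were positive and 2 negative (median 0.18, from 0.05 without erf4 replicate 2 to 0.21 with erf4 replicate 1 left out), and none was called.

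Among oxidases outside the 10 members, 2 were tested. GA2OX9 (AT5G58660) had 13.3 and 15.0 TPM in wild-type seeds against 6.24 and 10.6 TPM, so that its wild-type level exceeded that of the 3 member 2-oxidases together, and it lay below the wild-type range (log2 fold change -0.72, SE 0.28, limma adjusted p = 0.705). Another 2-oxidase gene, GA2OX4 (AT1G47990) had 3.09 and 2.03 TPM against 4.04 and 4.01 TPM, above that range (log2 fold change 0.51, SE 0.26, limma adjusted p = 0.831). GA20OX5, GA2OX3 and GA2OX7 stayed at or below 0.69 TPM, and GA20OX4 and GA2OX8 were listed at 0 in every library.

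Perception and signalling genes had small fold changes. Of 12 tested genes for GID1 receptors, DELLA repressors and their modifiers, 4 were positive and 8 negative, with log2 fold changes from -0.23 to 0.23 (median -0.06, from -0.22 without erf4 replicate 2 to 0.17 with erf4 replicate 1 left out). The ends of that range were SLY1 (AT4G24210), for the F-box protein that marks DELLA proteins for breakdown, and the DELLA gene RGL3 (AT5G17490). SLY1 had 33.2 and 35.4 TPM in wild-type seeds against 26.6 and 32.0 TPM, and the DELLA gene GAI (AT1G14920) 9.08 and 9.79 TPM against 7.84 and 8.67 TPM. RGL3 had 4.73 and 4.02 TPM against 4.96 and 5.60 TPM, and none of the 12 was called (smallest limma adjusted p = 0.967).

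Genes known to respond to gibberellin were mixed. Of 9 tested, 5 were positive and 4 negative (median 0.02, from -0.11 without wild type replicate 1 to 0.17 without erf4 replicate 1), and none was called. GASA14 (AT5G14920) had 11.8 and 5.03 TPM in wild-type seeds against 13.5 and 13.4 TPM, and GASA6 (AT1G74670) 177 and 42.9 TPM against 168 and 138 TPM, where wild type replicate 2 was low for both. GASA3 (AT4G09600) had 1.77 and 3.49 TPM against 2.34 and 0.68 TPM, which overlap. All 3 tested transport genes were negative (median -0.33, from -0.54 without wild type replicate 2 to -0.11 when wild type replicate 1 was left out). SWEET13 (AT5G50800), for a sugar transporter that also carries gibberellin, had 11.2 and 8.83 TPM against 4.89 and 6.60 TPM (log2 fold change -0.71, SE 0.24, limma adjusted p = 0.632). On the same scale the transporter genes NPF3.1 (AT1G68570) and NPF2.10 (AT3G47960) stood at -0.33 and -0.05.

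**Figure D5:**
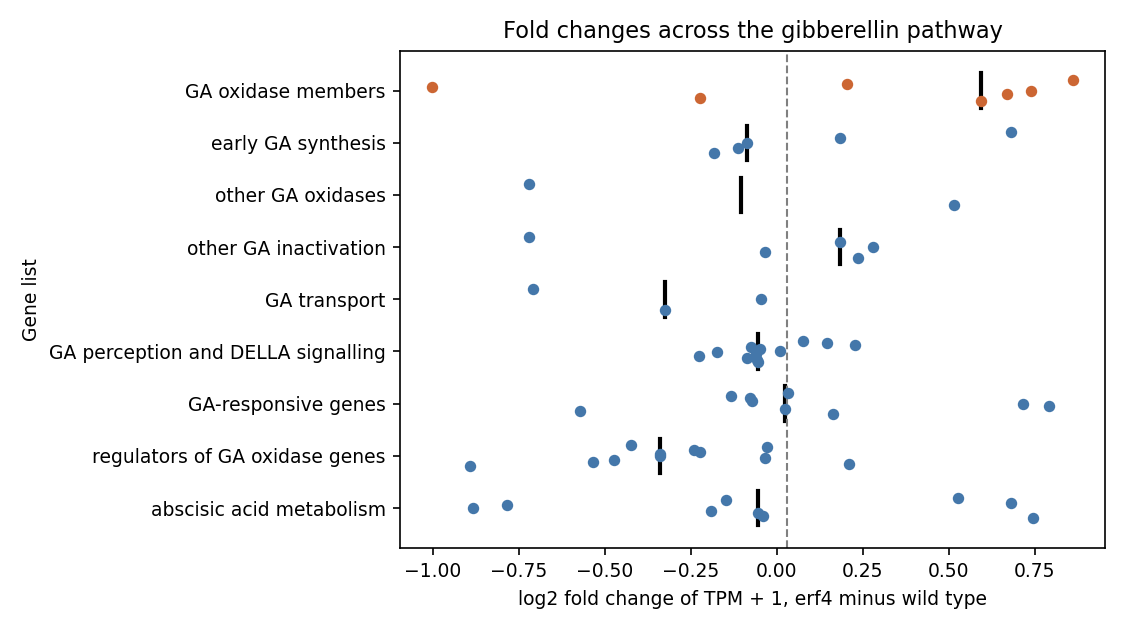
Log2 fold changes (TPM + 1, erf4 minus wild type) of tested genes by list, 1 point per gene, with a black bar at each list's median and a dashed line at 0.03, the median of all tested genes. The 7 oxidase members run from -1.00 to 0.86, and the 12 perception and signalling genes from -0.23 to 0.23.

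Abscisic acid, which opposes gibberellin in seeds, offers a comparison in its own enzymes. Of 9 tested metabolism genes 3 were positive and 6 negative (median -0.06, from -0.23 without erf4 replicate 2 to 0.06 with erf4 replicate 1 left out), and none was called. CYP707A1 (AT4G19230), for an enzyme that breaks the hormone down, had 11.4 and 10.9 TPM in wild-type seeds against 19.9 and 17.3 TPM (log2 fold change 0.68, SE 0.17, limma adjusted p = 0.525). NCED6 (AT3G24220), for a cleavage enzyme of its synthesis known from endosperm, had 27.7 and 30.9 TPM against 12.5 and 18.9 TPM (log2 fold change -0.88, SE 0.23, limma adjusted p = 0.548). NCED9 (AT1G78390), another gene for this enzyme, had 18.4 and 28.1 TPM against 8.31 and 19.4 TPM, which overlap.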

How the data were processed

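The authors deposited gene-level TPM with 2 decimals for 4 libraries, and their genotype means, which equal the means of the library columns. Tools in the submitters' processing notes are fastp, HISAT and RSEM, with no version or order; the genome build is not given in the sources used here. Of the identifiers, 98.1% matched a RefSeq TAIR10.1 locus, as did all 10 members. TAIR10.1 gave neighbours, coding sequences and promoters, read at RefSeq's own gene starts; no coordinates are printed.

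Genes with at least 1 TPM in at least 2 libraries (20804) entered a two-sided limma fit (3.58.1, R 4.3.3) of log2(TPM + 1) on genotype alone, with a variance trend and Benjamini-Hochberg adjustment over all genes; called means an adjusted p under 0.05. The fit was tried on simulated data with independent noise, which checks that added fold changes are recovered and not how the p-values behave in these libraries. An added 1 understates fold changes of low genes; ratios are of mean TPM. Depth is unknown, so no interval on counting error is given.

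The members and lists were chosen with earlier results of these data known. Named genes are the members, other oxidases with at least 1 TPM in a library and up to 3 genes of smallest p in each other list. Outside the embryo list, few are named from the marker lists. CPS, KO, GAMT2, IKU2, SESA3, CRA1, WOX9, GA20OX4, GA20OX5, GA2OX3, GA2OX7 and GA2OX8 were named after their values were seen. Alternatives covered the pseudocount, filter, scaling, variance model, threshold, replicate number as a term, and leaving out each library.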

Additional observations from a re-analysis of the deposited data

How the results depend on the processing

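No gene and no member was called by limma under either other pseudocount, either other filter, median-of-ratios or quantile rescaling, the fit without a variance trend, or an adjusted p under 0.1. Leaving out 1 library at a time gave 0 to 8 called genes (7 without wild type replicate 1, and 8 when replicate 2 was left out instead) and no called member; these fits set 1 library against 2 and assume that the lone library varies like the other genotype, so they say little about stability. The replicate numbers are shared by 2 libraries each and nothing in the labels says that they mark a common growth or day; deviations of same-numbered libraries correlated at 0.351 across genes. With the replicate block, limma called 1083 genes and 1 member, GA3OX4 (log2 fold change -1.00, adjusted p = 0.0340, against 0.491 to 1.00 in the other alternatives). The cause was not tested. In 81 of 82 alternatives for single members the direction and the side of the threshold were kept, and the exception was GA3OX4 under that block. The filter, variance-trend and block alternatives leave a member's fold change as it is, so this count says little about stability. Without single libraries the log2 fold changes ran from -1.80 to -0.21 for GA3OX4, -0.44 to -0.01 for GA20OX3, 0.42 to 0.76 for GA20OX2, 0.61 to 0.73 for GA3OX1, 0.50 to 0.98 for GA3OX3, 0.03 to 0.38 for GA2OX2 and 0.71 to 1.01 for GA2OX6. Log2 ratios of summed TPM ran from -0.39 to 0.006 for the GA20OX members (-0.18 with all libraries) and from -0.55 to 0.19 for the GA3OX members (-0.14). For the GA2OX members they ran from 0.59 to 0.78 (0.69), a sum that leaves out GA2OX9, which was lower in erf4. The direction of the GA20OX sum rests on erf4 replicate 1. That of the GA3OX sum rests on erf4 replicate 1 and wild type replicate 2. With TPM the depth behind members under 1 TPM cannot be judged.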
